A study of Mus musculus with 7 samples.

Results

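Fkbp5, Tmprss2, Trpv6, Steap4, Abcc4, Ndrg1, Homer2, Zbtb16, Slc45a3 and Herc3 are 10 genes whose transcripts rise with androgen in prostate epithelium and whose products stay in the cell or its membranes, unlike the secreted proteins of the gland. They were chosen by name, and all non-control probes whose accession maps to one of them were taken. Of the 17016 genes named on the array, 9 of the 10 had a probe, with 15 probes in all, and Zbtb16, a zinc finger transcription factor, had none and is not analysed here. A probe was tested when 3 or more arrays flagged its red signal as well above background and each group kept at least 2 values. This held for 14 of the 15 probes, so that 9 genes were tested. A gene with more than 1 such probe is counted by its brightest, and its others are given beside it.

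Prostate RNA of C57Bl/6 mice was measured on 7 Agilent arrays of 2 colours, with the prostate sample in red and one universal mouse reference RNA in green on each array. The 4 control samples are from ROSA(N1IC) mice without Cre, which the labels call NICD wild-type. The 3 PB-NICD samples carry ARR2PB-Cre together with ROSA(N1IC), an allele at which Cre turns on the intracellular domain of Notch1. The strain and the ROSA(N1IC) allele are thus common to both groups, and ages are not given in the sources used here. ARR2PB is a composite promoter built from the probasin gene, active in prostate epithelium and itself responsive to androgen. The labels name samples and not mice or pools, so p-values measure the spread between these samples, which may in part be technical.

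As background, steroid hormones act through receptors that enter the nucleus and bind DNA, and the androgen response element is made of paired copies of a short motif. In luminal cells of the prostate androgen switches on secretory genes and also genes of ordinary cell function such as the present ones, which include a receptor chaperone, membrane enzymes and channels. The glucocorticoid receptor binds nearly the same motif, and several of these genes, Fkbp5 above all, answer to glucocorticoids in other tissues.

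Tmprss2, a serine protease anchored in the membrane, and Trpv6, a calcium channel of epithelia, fell in PB-NICD prostates. None of the other 7 genes passed the threshold in either direction. Fkbp5 and Homer2 had higher means in PB-NICD, at 0.56 and 0.44 (log2), and Ndrg1 a lower one, at -0.52, all with an adjusted p above 0.1. Steap4, Slc45a3, Abcc4 and Herc3 lay between -0.26 and 0.14. All changes are differences of mean log2 ratio of sample over reference, PB-NICD minus control, with p-values from limma adjusted by Benjamini-Hochberg over the 17253 items tested (one probe per named gene, and each probe without a gene name on its own) and a threshold of 0.05. In bulk tissue a fall through fewer cells of a type and a fall through less RNA per cell cannot be told apart.

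The 250 bases before the transcription start are shown for the 2 genes that fell, because these passed the threshold, in the RefSeq sequence of GRCm38.p6. Capitals mark matches to one arm of the androgen response element (AGAACA, or TGTTCT on the other strand) and to the core of the site bound by RBPJ, the DNA-binding partner of the Notch1 intracellular domain (TGGGAA, or TTCCCA). Both lie on the minus strand, Tmprss2 at chr16:97611196-97611445 and Trpv6 at chr6:41636406-41636655.
Tmprss2: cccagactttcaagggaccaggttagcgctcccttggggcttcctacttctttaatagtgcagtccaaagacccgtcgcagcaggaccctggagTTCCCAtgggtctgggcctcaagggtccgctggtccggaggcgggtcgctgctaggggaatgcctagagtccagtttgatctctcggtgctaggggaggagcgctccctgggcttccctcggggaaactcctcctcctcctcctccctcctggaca
Trpv6: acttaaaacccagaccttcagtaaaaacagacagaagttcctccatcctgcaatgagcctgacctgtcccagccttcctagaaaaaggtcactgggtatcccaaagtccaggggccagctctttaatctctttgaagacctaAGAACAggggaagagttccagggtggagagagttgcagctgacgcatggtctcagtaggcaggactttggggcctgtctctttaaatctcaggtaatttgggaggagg
Tmprss2 held 1 RBPJ core, which begins 156 bases before the start, and no arm of the androgen element. Trpv6 held 1 such arm, which begins 108 bases before the start, and no RBPJ core. Of all 32851 promoters in the table, 16.1% held an arm and 21.6% an RBPJ core in the same window, and 0.00913% held the whole androgen response element (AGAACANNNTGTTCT), all searched on both strands. Promoters were found for 8 of the 10 genes, 11 promoters in all, and none of them held the whole element. One Abcc4 promoter held an arm and the Steap4 promoter an RBPJ core, and these letter matches describe the sequence and not binding.

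One array needed care before any value could be read. On PB-NICD 1, 6 spots had a local background far above the spot in the sample channel, the lowest net signal being -47741, and 2 spots in the reference channel. The background model (normexp) estimated the mean background residue from all spots at -220.1 on that array, against -22.4 to -8.14 on the others. With spots of a net signal below -30 left out of the estimate, it was -7.76 on PB-NICD 1 and -10.2 to -8.14 on the others. Under the estimate from all spots, net signals of 30 and 100 on PB-NICD 1 became 347 and 377, nearly equal, whereas under the other they became 87.8 and 158. The estimate without those spots was therefore used throughout, a choice made after the data, and results of the estimate from all spots, had been seen. It left out 2 spots on control 3 as well. For the 9 genes and for each listed gene named below as having passed in the reported fit, the value under the estimate from all spots is given where it ends the call.

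With this correction, Notch1 marked the groups as labelled. The only Notch1 probe had log2 ratios of 0.05, 0.30, 0.84 and 0.66 on control 1 to 4, with PB-NICD 2 at 2.58 and PB-NICD 3 at 2.71. On PB-NICD 1 its spot was marked as an outlier, and it read 2.47 with outlier spots kept, against 0.64 under the estimate from all spots. Every PB-NICD array was therefore above every control. The luminal marker Pbsn, the secreted prostate protein probasin, was far above the reference on each array, at 9.87 to 11.6 in controls and 9.67 to 10.1 in PB-NICD. The arrays lay on 2 slides, control 1, control 2 and PB-NICD 1 on slide 1 and the other 4 on slide 2, so results are also given within each slide. The sample channel was dim, with a median signal between 69 and 107 over a background of 53 to 55, and no spot was saturated.

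Trpv6 carries calcium into epithelial cells and is raised in prostate cancers. Its probe had log2 ratios of 1.53, 1.33, 1.12 and 1.81 on control 1 to 4, and of 0.33, 0.20 and 0.53 on PB-NICD 1 to 3. Every PB-NICD array lay below every control, by a clear margin between the lowest control and the highest PB-NICD array. Trpv6 fell by 1.09 ± 0.16 (log2, SE; 95% confidence interval -1.45 to -0.73; adjusted p = 0.00220), which is 2.13-fold, from 1.44 ± 0.29 (SD, n = 4) to 0.35 ± 0.16 (SD, n = 3). The fall was nearly the same on both slides, at -1.10 within slide 1 and -1.10 within slide 2. The test of the difference of the fall between slides gave -0.00041 ± 0.35 with an adjusted p of 1.00. Trpv6 passed under all 24 other settings, its smallest change being -0.60, with median centring. One of these settings is the fit within slide 1, whose PB-NICD group is PB-NICD 1 alone, taken to vary like the controls. Others, among them scaling between arrays (Aquantile) and other filters on dim probes, leave its change at -1.09 as reported. These are no separate check of the change. The raw sample signal of the probe was 210.5 and 197 on the slide 1 controls against 156 on PB-NICD 1, and 284 and 400 on the slide 2 controls against 185 and 255. The fall was thus already in the red signal of each slide before any correction.

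Tmprss2 cleaves proteins at the cell surface and, in human prostate cancer, lends its androgen-driven promoter to fused ETS genes. Its brighter probe had log2 ratios of 4.75 on control 2 and 5.14 on control 4, and of 3.32, 3.58 and 3.97 on PB-NICD 1 to 3. The spots of control 1 and control 3 were marked as outliers and left out. With them kept they read 5.24 and 5.48, the highest of all arrays. Every PB-NICD array lay below every control, with those spots or without. Tmprss2 fell by 1.32 ± 0.21 (log2, SE; 95% confidence interval -1.80 to -0.83; adjusted p = 0.00617), 2.49-fold, from 4.94 ± 0.28 (SD, n = 2) to 3.62 ± 0.33 (SD, n = 3). With outlier spots kept it fell by 1.51, with 4 controls (adjusted p = 0.000831). Each PB-NICD array lay below the control of its slide, PB-NICD 1 by 1.43, PB-NICD 2 by 1.56 and PB-NICD 3 by 1.16. The raw sample signal was 779 and 513 on the slide 1 controls against 384 on PB-NICD 1, and 1612 and 1138.5 on the slide 2 controls against 688.5 and 807, so it too was lower on each PB-NICD array.

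The reported call of Tmprss2 rested on 2 control values, and some settings ended it. It held with no background subtraction (-1.40, adjusted p = 0.00428) and with an offset of 16 (-1.52, adjusted p = 0.00384). It also held with the software's processed signals (-1.73, adjusted p = 0.0117). It was lost without control 4, which leaves 1 control value taken to vary like the other group (-1.12, adjusted p = 0.0555), with the sample channel alone (-0.95, adjusted p = 0.0799) and with normexp estimated from all spots (-2.06, adjusted p = 0.259), where PB-NICD 1 read 1.08. The direction did not turn under any of the 24 other settings.

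The second Tmprss2 probe, much dimmer, read 1.11 and 1.00 on the slide 1 controls and 2.49 and 2.49 on the slide 2 controls. On PB-NICD 1 to 3 it read 0.75, 1.20 and 1.56. The groups overlapped because the controls of the slides stood apart by 1.44, but within each slide every PB-NICD array was below both controls. The change over all arrays was -0.60 ± 0.38 (adjusted p = 0.416 over all probes), and that within a slide was -0.31 for PB-NICD 1, -1.29 for PB-NICD 2 and -0.92 for PB-NICD 3. The fall was larger on slide 2 by 0.80 ± 0.26 by limma's interaction term, with an unadjusted p of 0.0120 and an adjusted p of 1.00. The reference channel of this probe was well above background on 2 of 7 arrays, so its ratio has a dim divisor. The mean of the probes kept on each array put Tmprss2 at -0.17 (adjusted p = 0.887 by limma). That mean is not like for like, because control 1 and control 3 enter it with the dimmer probe alone.

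**Figure D1:**
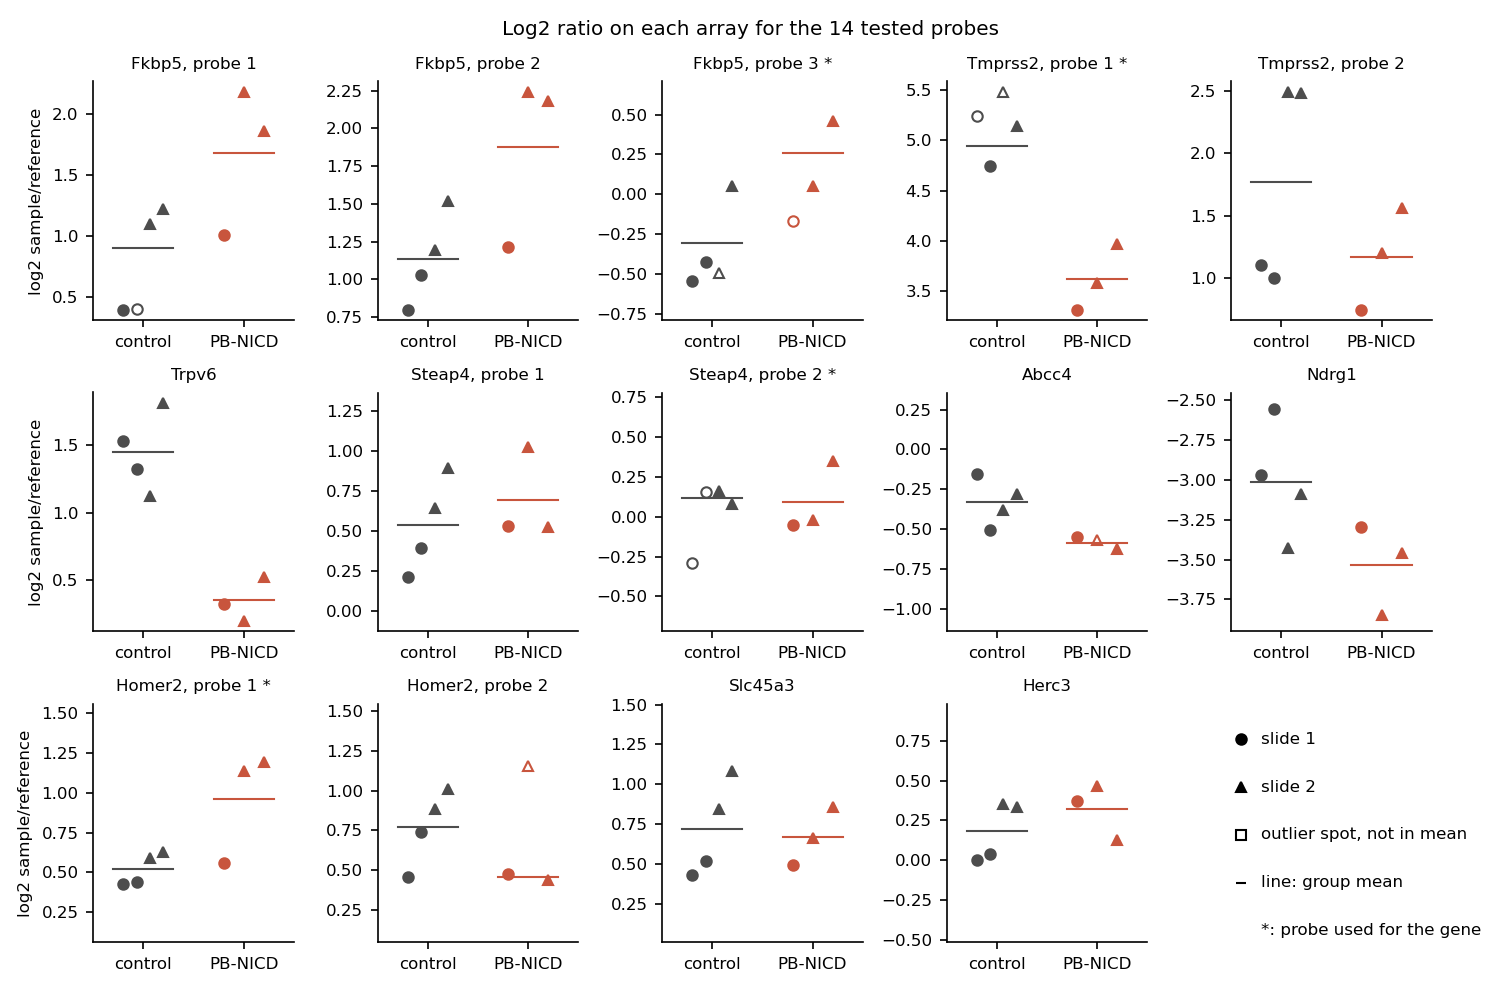
Log2 ratio of sample over reference (vertical axis, its own range in each panel) for the 14 tested probes in control and PB-NICD, with circles for slide 1, triangles for slide 2, open symbols for outlier spots and lines for the mean of the kept spots. The 3 PB-NICD values of Trpv6 lie between 0.20 and 0.53, under control values of 1.12 to 1.81, and those of the first Tmprss2 probe between 3.32 and 3.97, under all control values.

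Fkbp5 is a chaperone partner of steroid receptors and one of the genes most responsive to androgen and to glucocorticoid. All 3 of its probes had a higher mean in PB-NICD, and none passed over all probes. The brightest probe read -0.54, -0.42 and 0.05 on control 1, 2 and 4, with PB-NICD 2 at 0.05 and PB-NICD 3 at 0.46. The highest control and the lower PB-NICD array were equal to 2 decimals, and the groups touched. Its spots on control 3 and PB-NICD 1 were outliers, and with them kept at -0.49 and -0.17 the groups overlapped. The change was 0.56 ± 0.21 (log2, SE; 95% confidence interval 0.08 to 1.04; adjusted p = 0.165), from -0.30 ± 0.32 (SD, n = 3) to 0.26 ± 0.29 (SD, n = 2).

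A second Fkbp5 probe, kept on all arrays, read 0.80, 1.03, 1.20 and 1.52 on control 1 to 4 and 1.21, 2.24 and 2.18 on PB-NICD 1 to 3. PB-NICD 1 lay within the controls, although above both controls of its own slide, and PB-NICD 2 and PB-NICD 3 lay above all controls. Its change was 0.74 ± 0.25 (adjusted p = 0.107). The remaining probe read 0.40, 1.10 and 1.22 on control 1, 3 and 4 and 1.01, 2.17 and 1.86 on PB-NICD 1 to 3, a change of 0.77 ± 0.30 (adjusted p = 0.173). Of the 8 values of these probes on PB-NICD arrays, each was above the mean of the controls on its slide, by 8e-05 in the closest case. Kept controls of slide 2 read higher than those of slide 1 on each Fkbp5 probe, by 0.45 to 0.76. For the brightest probe that was control 4 alone, and control 3 read -0.49 with its outlier spot kept. With slide as a fixed block the change of the brightest probe was 0.20 (adjusted p = 0.642). That value sets PB-NICD 2 and PB-NICD 3 against control 4 only. With outlier spots kept, PB-NICD 1 to 3 stood 0.25, 0.42 and 0.69 above the mean of the controls on their slide.

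Before correction, the sample signal of the brightest Fkbp5 probe was 373.5 and 421.5 on the slide 1 controls and 1001 on PB-NICD 1. On slide 2 it was 704 and 937.5 on the controls and 1711 and 1836.5 on PB-NICD. The red signal was thus higher on each PB-NICD array than on both controls of its slide, while the median red signal of all probes was also higher there (88 against 69 and 70 on slide 1, 106.5 and 107 against 87.5 and 86 on slide 2). The size of the Fkbp5 change depended on the normalization. With the median of each array in place of loess it was 1.48 (adjusted p = 0.00802), and the median of all items then shifted to 0.27. In the authors' deposited table the limma change was 0.42 (adjusted p = 0.0440).

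Homer2, a scaffold that ties calcium channels and glutamate receptors to their partners, had 2 tested probes that disagreed in sign. The brighter one ranged from 0.43 to 0.63 over the 4 controls and read 0.56, 1.14 and 1.19 on PB-NICD 1 to 3. PB-NICD 1 lay within the controls and the other 2 above them. The change was 0.44 ± 0.16 (log2, SE; 95% confidence interval 0.09 to 0.79; adjusted p = 0.128). Without PB-NICD 1 it was 0.64 and passed (adjusted p = 0.0182). It also passed in the authors' deposited table (0.37, adjusted p = 0.0267), where 1397 of all items rose, against 594 as reported. The second probe ranged from 0.45 to 1.01 in controls and read 0.47 on PB-NICD 1 and 0.44 on PB-NICD 3, with an outlier spot of 1.16 on PB-NICD 2 left out. Its change was -0.31 ± 0.17 (adjusted p = 0.326). With the mean of the probes kept on each array the gene stood at 0.18 (adjusted p = 0.593). PB-NICD 2 enters that mean with the brighter probe alone.

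Ndrg1, a protein of growth arrest and differentiation that hypoxia also induces, was far below the reference RNA on each array. Its log2 ratios ranged from -3.43 to -2.55 in controls and from -3.85 to -3.29 in PB-NICD. The groups overlapped through control 3, and each PB-NICD array was below both controls of its own slide in this ratio. Before correction its red signal was higher instead, at 153.5 on PB-NICD 1 against 101 and 128.5 on the slide 1 controls. On slide 2 it was 181.5 and 185 on PB-NICD against 150.5 and 153. The median red signal of all probes was higher on the PB-NICD arrays as well. The change was -0.52 ± 0.20 (log2, SE; 95% confidence interval -0.97 to -0.08; adjusted p = 0.157), with -0.53 within slide 1 and -0.40 within slide 2. In the authors' deposited table it was -0.47 and passed (adjusted p = 0.0137), where 2176 of all items fell, against 776 as reported. With the median in place of loess it turned to 0.10 (adjusted p = 0.626).

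Abcc4 exports cyclic nucleotides, prostaglandins and drugs from the cell. Its brighter probe read -0.16, -0.51, -0.38 and -0.28 on control 1 to 4, with PB-NICD 1 at -0.55 and PB-NICD 3 at -0.63. Both PB-NICD values lay below all controls, and the outlier spot of PB-NICD 2, at -0.57 with outlier spots kept, did as well. The change was small and did not pass, at -0.26 ± 0.14 (log2, SE; 95% confidence interval -0.57 to 0.05; adjusted p = 0.336). The dimmer probe was flagged as well above background on 2 of 4 controls and on 0 of 3 PB-NICD arrays, and it was not tested. It read -0.05, -0.22, 0.08 and 0.13 on control 1 to 4 and -0.40, -0.43 and -0.34 on PB-NICD 1 to 3, so that it too read lower on each PB-NICD array.

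Steap4, a metalloreductase that reduces iron and copper at membranes, had PB-NICD arrays on both sides of the 2 controls kept for its brighter probe. Its brighter probe read 0.16 and 0.08 on control 3 and control 4, and -0.05, -0.02 and 0.35 on PB-NICD 1 to 3. PB-NICD 1 and PB-NICD 2 were just below both controls and PB-NICD 3 above them. The spots of control 1 and control 2 were outliers, and with outlier spots kept they read -0.29 and 0.16. PB-NICD 1 and PB-NICD 2, then at -0.04 and 0.006, lay within the controls. The change was -0.03 ± 0.16 (log2, SE; 95% confidence interval -0.40 to 0.34; adjusted p = 0.950), from 2 control values, and its sign turned under 11 of the other settings. The dimmer probe overlapped between groups at 0.16 ± 0.18 (adjusted p = 0.693).

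Slc45a3, a sugar transporter of the prostate known as prostein, did not separate the groups. It ranged from 0.43 to 1.08 in controls and from 0.50 to 0.85 in PB-NICD. All 3 PB-NICD arrays lay within the control range, with a change of -0.05 ± 0.17 (log2, SE; 95% confidence interval -0.42 to 0.32; adjusted p = 0.915). Both slide 2 controls were above both slide 1 controls, by 0.49 in the means. Herc3, a ubiquitin ligase, ranged from 0.0010 to 0.35 in controls and from 0.13 to 0.47 in PB-NICD. Its change was 0.14 ± 0.14 (log2, SE; 95% confidence interval -0.16 to 0.44; adjusted p = 0.632).

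**Figure D2:**
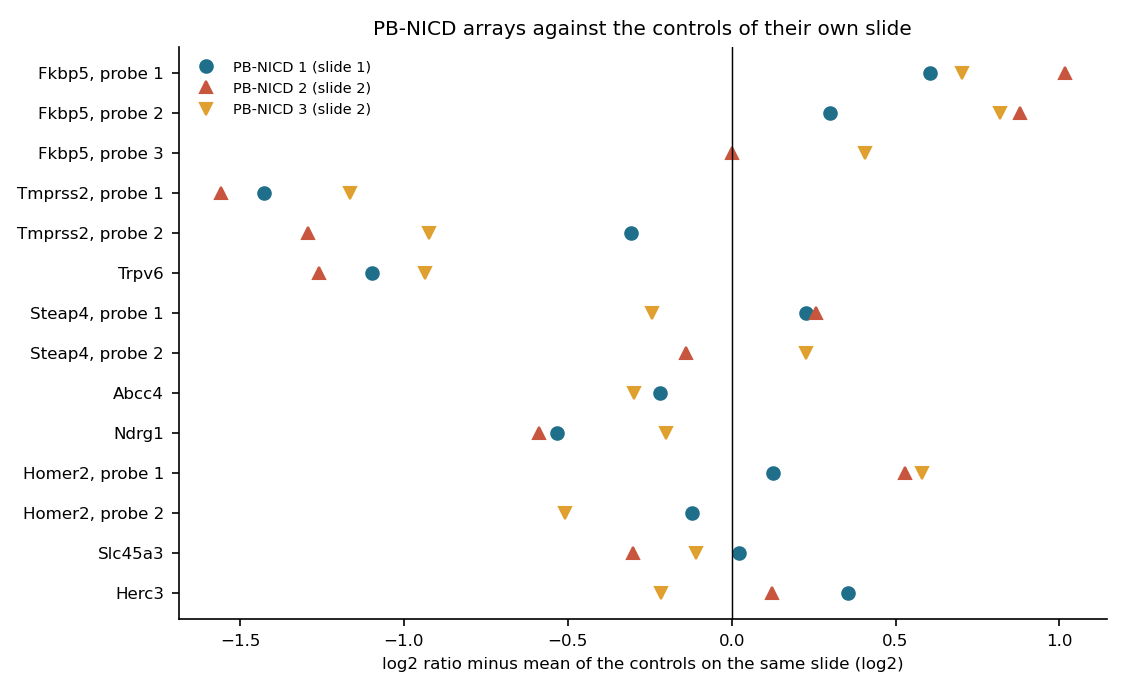
Log2 ratio of each PB-NICD array minus the mean of the controls kept on its slide (horizontal axis, log2) for the 14 tested probes, with a circle for PB-NICD 1 on slide 1 and triangles for PB-NICD 2 and PB-NICD 3 on slide 2. Both Tmprss2 probes and Trpv6 lie left of 0 on all 3 arrays, and Fkbp5 lies at or right of 0.

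Of the 9 genes, 2 fell and none rose. Among all items 4.5% fell and 3.44% rose by the same rule. Probe by probe, 2 of the 14 tested passed, those of Trpv6 and the brighter Tmprss2 probe, as 7.98% of all probes did. At an unadjusted limma p under 0.05, 2 of the 9 genes were higher and 3 lower, against 20.9% of all items in either direction. The median change of the 9 genes was -0.05, with a range from -1.32 to 0.56, and that of all items was -0.02. Of the 5 genes with a kept spot on all 7 arrays, Trpv6 alone had groups that did not overlap, lower in PB-NICD, as 12.5% of all such items did, and 9.61% did so with PB-NICD higher. Against the controls of their own slide, PB-NICD 1 to 3 stood at medians of -0.22, -0.22 and -0.20 over the 7, 8 and 9 genes with a kept spot there, where all items stood at -0.023, -0.049 and -0.00036. Against all controls the medians of the genes were -0.22, -0.097 and -0.054, and those of all items -0.018, -0.048 and -0.0032.

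For most of these genes the controls of slide 2 read higher than those of slide 1. Of their 8 tested probes kept on all arrays, 6 had both slide 2 controls above both slide 1 controls, against 29.6% of all such probes. Set against the controls of their own slide, 3 of these 8 probes were below both on PB-NICD 1 (38.9% of all such probes), 3 were below both on PB-NICD 2 and PB-NICD 3 (27.3%) and 2 were above both there (22.6%). The median of the slide 2 minus slide 1 control difference was 0.25 for the 8 genes with controls kept on both slides and -0.00059 for all items. With slide as a fixed block Tmprss2 (-1.39, adjusted p = 0.000439) and Trpv6 (-1.10, adjusted p = 0.00103) passed and no other of the genes did, where 11.2% of all items passed. Homer2 then stood at 0.38 (adjusted p = 0.0655) and Ndrg1 at -0.45 (adjusted p = 0.0795). No probe on the array had a change that differed between slides at an adjusted p under 0.05 by limma's interaction term, and 3.9% of the 13670 probes did so at an unadjusted p under 0.05. That term compares PB-NICD 1 alone with the other PB-NICD arrays.

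**Figure D3:**
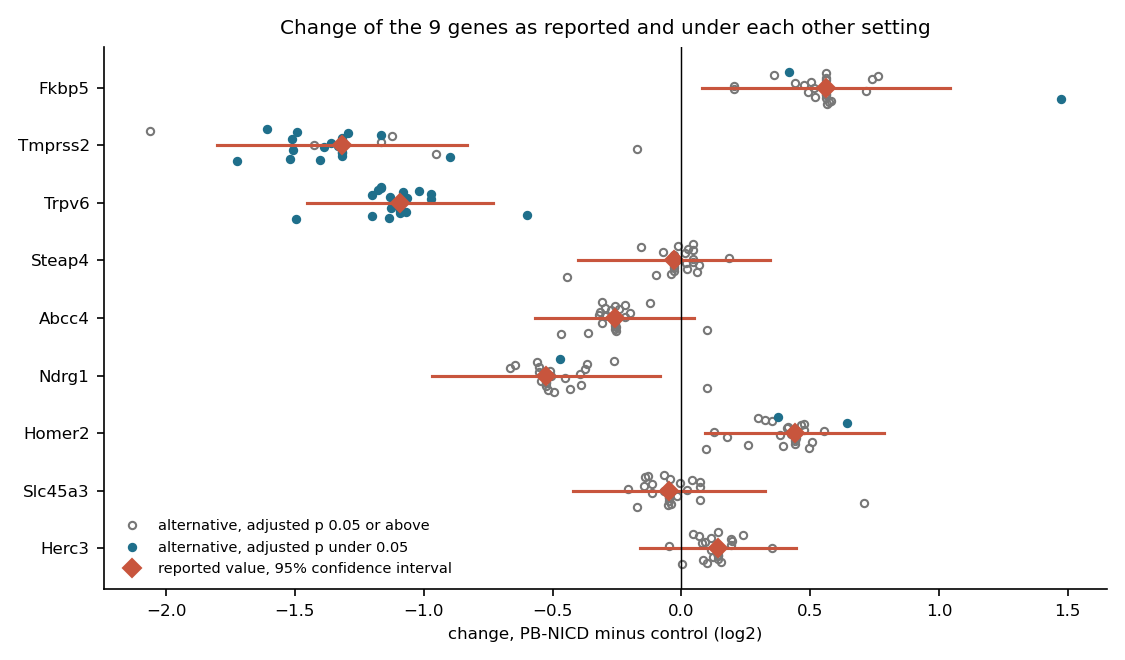
Change from control to PB-NICD (horizontal axis, log2) for each of the 9 genes, with a diamond and 95% confidence interval for the reported value and small circles for each other setting that gave a value, filled where the adjusted p was under 0.05. Trpv6 is filled under all 24 settings, Tmprss2 lies left of 0 throughout, and the other genes are filled under 2 settings at most.

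The other genes of the androgen response went both ways. Of 80 such genes in a general list, 78 had a probe and 70 were tested. Among all items 4.5% fell and 3.44% rose, and 20.9% had an unadjusted limma p under 0.05 in either direction. These shares are also the background of the lists below. Of the 70 genes 11 fell and 5 rose, with a median of -0.06. The falls were led by Man1a, a mannosidase that trims glycans on new glycoproteins (-1.92 ± 0.20, adjusted p = 0.000228), Spcs3, a subunit of the signal peptidase (-1.43 ± 0.15), and Lman1, a cargo receptor for secreted glycoproteins (-1.29 ± 0.13). Sec24d, a coat protein of vesicles leaving the endoplasmic reticulum, fell by 1.05 ± 0.14, and Sord, which makes fructose from sorbitol, fell by 1.12 ± 0.15. The largest rise was that of Abhd2, a lipase (1.54 ± 0.16, adjusted p = 0.000235). With normexp estimated from all spots Abhd2 stood at 1.23 (adjusted p = 0.0919). Under that estimate none of the 70 rose and 8 fell, where 71 of all 17253 items rose and 388 fell. With the median in place of loess 18 rose and 4 fell, where 4328 of all items rose and 289 fell. The balance of the directions thus depended on both choices, among all items as in this list. With slide as a fixed block 7 rose and 13 fell, where 11.2% of all items passed in either direction.

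**Figure D4:**
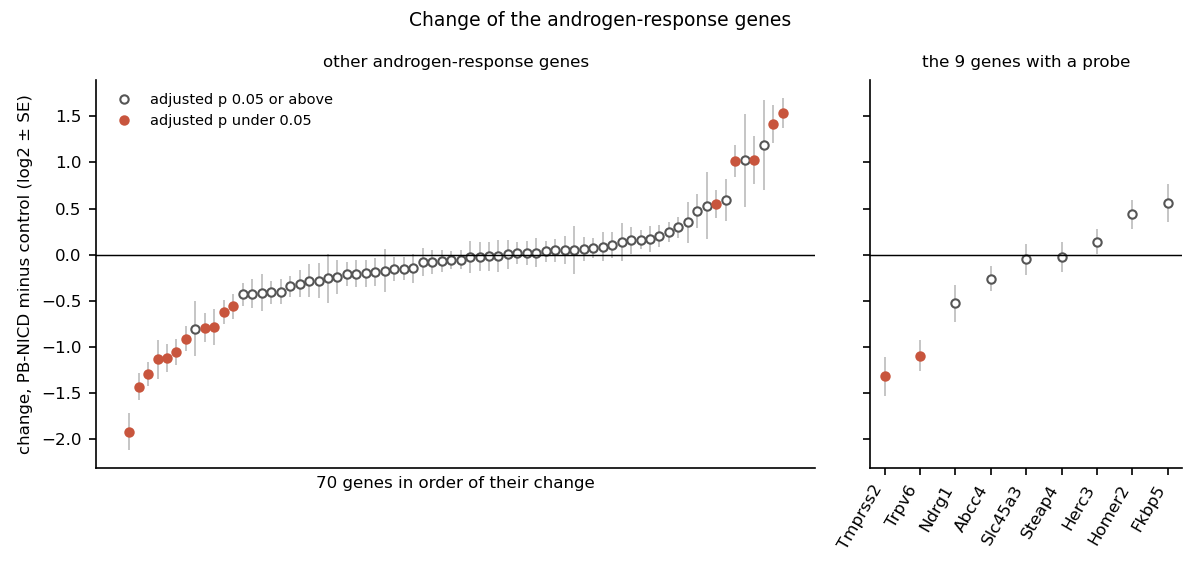
Change from control to PB-NICD with its standard error (vertical axis, log2) for the 70 other androgen-response genes, in order, and for the 9 genes, with filled points where the adjusted p was under 0.05. Filled points lie at both ends of the larger list, 11 below 0 and 5 above, and among the 9 genes Tmprss2 and Trpv6 are filled.

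Nr3c1, the glucocorticoid receptor, changed by -0.13 ± 0.15 and did not pass (adjusted p = 0.686). At an unadjusted limma p under 0.05, 2 of 19 receptors and cofactors tested were higher and 2 lower, against 20.9% of all items in either direction. At the adjusted threshold 1 fell and none rose. That 1 was Gata2, a zinc finger transcription factor, which fell by 1.74 ± 0.16 (adjusted p = 0.000170). With slide as a fixed block Esr1, an estrogen receptor, rose as well (0.70, adjusted p = 0.00690), against 0.80 with an adjusted p of 0.0606 without the block. With that block 11.2% of all items passed in either direction. With normexp estimated from all spots and no block, Esr1 stood at 0.17 (adjusted p = 0.936).

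Genes that glucocorticoids also raise, as they do Fkbp5, split as well. Of 14 tested, 3 fell, the metallothionein Mt2 (-3.11 ± 0.28), the mTOR inhibitor Ddit4 (-0.82 ± 0.17) and the kinase Sgk1 (-0.78 ± 0.20). Tsc22d3, the glucocorticoid-induced leucine zipper, rose by 0.70 ± 0.13 (adjusted p = 0.00740), and Lcn2, an iron-carrier binding protein, rose by 1.20 ± 0.13. With normexp estimated from all spots Tsc22d3 (0.43, adjusted p = 0.390), Lcn2 (0.89, adjusted p = 0.162) and Sgk1 (-0.90, adjusted p = 0.0846) did not pass. Of 5 tested hypoxia genes, to which Ndrg1 is akin, 4 fell. These were the glucose transporter Slc2a1 (-0.72 ± 0.13), the collagen hydroxylase P4ha1 (-0.71 ± 0.14) and the glycolytic enzymes Ldha (-0.75 ± 0.14) and Pgk1 (-0.57 ± 0.12). Under the estimate from all spots Slc2a1 (-0.57, adjusted p = 0.172) and P4ha1 (-0.52, adjusted p = 0.337) did not pass. Of 22 relatives of the genes, such as the other Steap, Abcc and Homer genes, 1 rose and none fell. It was Ndrg2, which rose by 1.83 ± 0.13 (adjusted p = 4.57e-05) where Ndrg1 stood at -0.52. At an unadjusted limma p under 0.05, 3 relatives were higher and 3 lower, against 20.9% of all items in either direction. Of the calcium genes set beside Trpv6, 3 were tested and none passed, by limma at an adjusted or an unadjusted p under 0.05.

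Some markers of cell types differed between the groups, while most did not pass, and their part in the results was not tested. Of 10 luminal markers tested, Krt19 rose by 1.03 and Cd24a fell by 2.06. Of 9 basal markers 3 fell, Krt5 (-1.72), Krt15 (-1.11) and Itga6 (-0.52), and of 8 smooth muscle markers 2 fell, Actg2 (-0.50) and Cnn1 (-0.76). Of 3 urothelial markers Upk3a, a plaque protein, rose by 5.04 from 2 values in each group, and of 7 leukocyte, 4 endothelial and 3 neuroendocrine markers 1 each fell, Cd4 (-3.61), Emcn (-0.80) and Ncam1 (-1.20). With normexp estimated from all spots the calls of Krt19 (0.89, adjusted p = 0.170), Actg2 (-0.59, adjusted p = 0.0799), Cnn1 (-0.84, adjusted p = 0.0660) and Emcn (-0.89, adjusted p = 0.0699) were lost. With slide as a fixed block 11.2% of all items passed in either direction. By that fit 4 smooth muscle markers fell, Acta2 (-0.49) and Myh11 (-0.79) in addition. So did 4 basal markers, Trp63 (-0.55) in addition, and also the luminal Krt18 (-0.49) and the urothelial Upk1b (-0.76). None of 7 fibroblast and 2 seminal vesicle markers passed, by limma at an adjusted or an unadjusted p under 0.05. The seminal vesicle protein Svs4 read 9.36 on control 2, 2.35 on control 1 and 5.72 on PB-NICD 1, against -0.28 to 0.71 on slide 2. Without control 2, Trpv6 fell by 1.13 and Tmprss2 by 1.51, and without PB-NICD 1 they fell by 1.08 (adjusted p = 0.0106) and 1.17 (adjusted p = 0.0171).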

How the data were processed

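Per the file headers, Agilent Feature Extraction 10.7.3.1 gave the spot intensity, and the deposited intensity columns are median spot and background signals, not normalized, with flags per spot. A deposited log10 ratio of the processed signals, red over green by the headers, was used to check the direction. The processed signals served in 1 alternative. The authors also deposited a value table that its values show to be on a log2 scale centred near 0 (column medians -0.02 to -0.01), its method not given in the sources used here. Its direction is that of red over green, by its match to each array (r = 0.777 to 0.882).

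In limma 3.58.1 under R 4.3.3, background was corrected with normexp (offset 50, its parameters from spots with a net signal of at least -30), followed by loess with weight 0 for control and outlier spots. Outlier spots were set to missing and spots of a probe averaged. The net signal limit was added after normexp on all spots and its alternatives had been run. It was chosen from the background parameters, before its own calls were seen. Accessions were named through RefSeq (GRCm38.p6), giving 24375 of 41174 probes a symbol. The files' build is older, so promoter coordinates are RefSeq's. The groups were compared with lmFit and eBayes, two-sided, group the only term. Named from each list were up to 6 genes past the threshold with the lowest p, plus Nr3c1 and Notch1. Pbsn, Svs4 and the list genes that passed only with slide as a block were named after their values were seen. Some results are not reported here. The genes and lists were chosen with earlier results of these data known. The offset pulls dim ratios towards 0, and the number of arrays, 4 and 3, limits precision. The fit was tested on simulated data with independent noise and no slide differences, so that test does not cover the slide differences seen here.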

Additional observations from a re-analysis of the deposited data

How the results depend on the processing

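The changes were recomputed under 24 other settings. Trpv6 kept its call under all of them. They include the fit within slide 1, where PB-NICD 1 is the only array of its group, and settings that leave its change as reported. The other settings that end a call or turn a direction follow, and the cause was not tested.

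With median centring in place of loess, Steap4 stood at 0.062, Abcc4 at 0.10, Ndrg1 at 0.10 and Slc45a3 at 0.71, all reversed, and 1 gene rose. The median of the 9 genes was 0.10, of the other androgen-response genes 18 rose and 4 fell, and 4328 items rose and 289 fell, against 594 and 776 as reported. With processed signals the median of the 9 genes was -0.44, 2 other androgen-response genes rose and 325 items rose, and with an offset of 16, 3 such genes rose. With the sample channel alone Steap4 stood at 0.021 and Slc45a3 at 0.072, 1 of the 9 genes fell, 5 other androgen-response genes fell and 408 items fell. Steap4 stood at 0.069 with outlier spots kept and at 0.044 in the fit that holds slide as a block. With the mean of the probes kept on each array Steap4 stood at 0.020 and 1 of the 9 genes fell. Arrays differ in which probes enter that mean. On slide 1 alone (within slide 1) Slc45a3 stood at 0.023, and 1 of the 9 genes fell because Tmprss2 had 1 value in each group and no test. Within slide 2 Steap4 stood at 0.044, Herc3 at -0.047 and the median of the 9 genes at -0.21, 3 other androgen-response genes rose, and 346 items rose and 421 fell. With normexp on all spots, added after seeing the data, 1 of the 9 genes fell, 0 other androgen-response genes rose, and 71 items rose and 388 fell. In the authors' deposited table Steap4 stood at 0.044, 2 of the 9 genes rose, 8 other androgen-response genes rose and 17 fell, and 1397 items rose and 2176 fell.

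Leaving out 1 array at a time gave 0 to 1 of the 9 genes that rose and 1 to 2 that fell, a median of -0.16 to 0.040, 3 to 5 other androgen-response genes that rose and 7 to 11 that fell, and 371 to 652 items that rose and 438 to 887 that fell. The lowest count of items that rose came without PB-NICD 2 (371), as did that of items that fell (438, against 470 without PB-NICD 1). Steap4 ranged from -0.16 to 0.044, turning without control 3, PB-NICD 1 or PB-NICD 2, and Slc45a3 from -0.14 to 0.074, turning without control 4 or PB-NICD 1.

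Whether replicate numbers pair the samples could not be told. Deviations of arrays with the same number correlated at 0.32, -0.27 and 0.05 across items. They were not adjusted for slide, and PB-NICD 1 correlated at 0.38 with control 2 of its slide as well. Control 2 and PB-NICD 2, with the negative value, lay on different slides. With the number as a replicate block Trpv6 fell by 0.97 (adjusted p = 0.0120), Tmprss2 stood at -1.17 with no residual degrees of freedom and so no test, Steap4 at 0.19 and Slc45a3 at 0.074, 1 of the 9 genes fell and 465 items fell.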
